A study of Mus musculus with 26 samples.

Results

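Aldo-keto reductases of the *Akr1b* and *Akr1c* branches were followed in the epididymis and testis of ArKI mice, a knock-in line, and of wild-type (WT) mice. The genes are *Akr1b3*, *Akr1b7*, *Akr1b8*, *Akr1c12*, *Akr1c13*, *Akr1c14*, *Akr1c18* and *Akr1c19*. They were taken by symbol, with no measured value in the rule, and are 8 of the 23337 genes in the count tables, where all 8 have a row. Messenger RNA was sequenced for 5 ArKI and 5 WT males in each of the initial segment (IS) and the caput epididymidis, and for 3 males of either genotype in the testis. All mice were 3 months old and of a hybrid C57Bl/6N and 129 strain. ArKI males carry the knock-in allele and WT males carry none. The allele is present in every cell of the body, so that what arises within the epididymis and what reaches it from elsewhere cannot be told apart. The testis libraries were sequenced apart from those of the epididymis, so that for these organs the run and the tissue cannot be told apart either. By the methods 5 ArKI and 5 WT mice gave both IS and caput, but which IS sample belongs with which caput sample is not said. Tests between segments and of the interaction therefore treat the 20 samples as independent, though they share mice.

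Aldo-keto reductases are cytosolic enzymes that use NADPH to reduce aldehydes and ketones to alcohols. The *Akr1b* branch holds aldose reductase (*Akr1b3*), which makes sorbitol from glucose, and its relatives *Akr1b7*, first known as an androgen-dependent protein of the vas deferens, and *Akr1b8*, which is induced by fibroblast growth factor. The *Akr1c* branch holds hydroxysteroid dehydrogenases, which turn active steroids into less active ones or back, and reduce aldehydes and other carbonyls as well. *Akr1c18* is the enzyme that inactivates progesterone at carbon 20, and *Akr1c14* acts at carbon 3 of steroids such as dihydrotestosterone. In the epididymis, where testosterone and dihydrotestosterone maintain the epithelium, such enzymes can change the supply of active hormone.

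The genes lie in 2 clusters. In GRCm38 coordinates from RefSeq, the *Akr1c* members are protein-coding neighbours on chromosome 13, in the order *Akr1c14* (4048991 to 4090560), *Akr1c18* (4132615 to 4150646), *Akr1c13* (4191168 to 4205604), *Akr1c19* (4233503 to 4248361) and *Akr1c12* (4268172 to 4279399). The *Akr1b* members are on chromosome 6, at 34303930 to 34317489 (*Akr1b3*), 34354146 to 34368461 (*Akr1b8*) and 34412362 to 34423137 (*Akr1b7*). The first 90 coding bases of the *Akr1c* members, read from the GRCm38 reference transcripts, are shown because the resemblance of *Akr1c12* and *Akr1c13* bears on every value of those genes. Capitals mark the bases that differ from *Akr1c13*.
Akr1c13: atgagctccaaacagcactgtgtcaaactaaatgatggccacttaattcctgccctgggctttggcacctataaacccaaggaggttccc
Akr1c12: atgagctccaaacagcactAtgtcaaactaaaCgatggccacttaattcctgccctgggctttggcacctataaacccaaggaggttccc
Akr1c19: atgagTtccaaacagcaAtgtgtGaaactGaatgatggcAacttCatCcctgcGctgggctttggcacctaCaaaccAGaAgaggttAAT
Akr1c14: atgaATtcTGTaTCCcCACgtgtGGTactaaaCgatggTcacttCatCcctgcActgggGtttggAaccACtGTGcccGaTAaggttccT
Akr1c18: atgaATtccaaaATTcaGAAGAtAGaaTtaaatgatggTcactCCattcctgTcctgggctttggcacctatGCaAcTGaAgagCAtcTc
Within this stretch *Akr1c12* differs from *Akr1c13* at 2 bases, *Akr1c19* at 15, *Akr1c18* at 26 and *Akr1c14* at 30. Over the whole coding sequence the identity with *Akr1c13* was 96.2% for *Akr1c12*, 77.8% for *Akr1c19*, 74.0% for *Akr1c18* and 73.2% for *Akr1c14*.

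The resemblance matters because the authors counted uniquely mapped reads of 50 bases. Each transcript was therefore cut into all its windows of 50 bases, and a window was called shared when another gene's transcript holds the same bases. *Akr1c12* and *Akr1c13* share 347 windows, 28.6% of each transcript, with each other and with no other gene. *Akr1c14* and *Akr1c19* have no shared window, *Akr1c18* has 7 of 1151, *Akr1b8* has 42 of 1309 and *Akr1b7* has 195 of 1232, 164 of them in common with *Gm13857*. *Akr1b3* has 1153 shared windows of 1338, or 86.2%, and of its 951 coding bases 2 lie outside any shared window. Its first 90 coding bases are shown to give an example, with capitals reserved for bases outside shared windows, of which this stretch has none.
Akr1b3: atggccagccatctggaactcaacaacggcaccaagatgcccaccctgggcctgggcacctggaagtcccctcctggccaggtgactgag
The genes that share most windows with *Akr1b3* are *Gm38056* (1103 windows), *Gm6644* (752), *Gm6736* (654) and *Gm12138* (547).

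**Figure D1:**
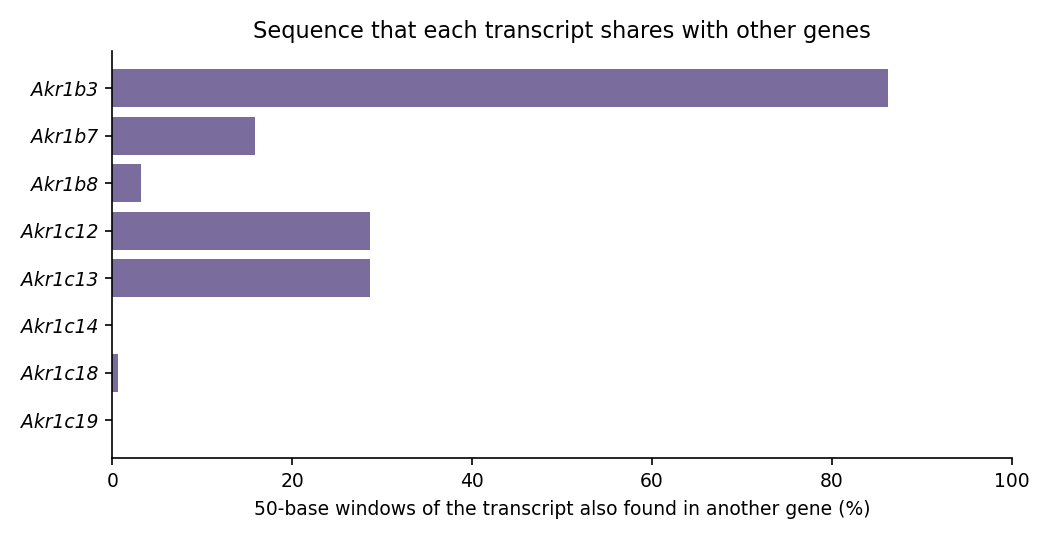
Share of each transcript's 50-base windows, in percent on the x axis, that also occur in a transcript of another gene, with 1 bar per gene. *Akr1b3* stands at 86.2%, *Akr1c12* and *Akr1c13* at 28.6% each, *Akr1b7* at 15.8%, and the other 4 genes at 3.2% or below.

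The resemblance of *Akr1c12* and *Akr1c13* extends into their promoters. The 220 bases that end 31 bases before the start given in the RefSeq promoter table on GRCm38.p6 are shown. They were chosen because both genes were lower in ArKI caput. For *Akr1c13* that start lies within the gene span printed above, not at its first base. They lie at chr13:4190937-4191156 on the plus strand (*Akr1c13*) and at chr13:4279430-4279649 on the minus strand (*Akr1c12*). Capitals mark bases that differ or have no partner when one promoter is aligned with the other, leaving aside the ends that run past the other window.
Akr1c13: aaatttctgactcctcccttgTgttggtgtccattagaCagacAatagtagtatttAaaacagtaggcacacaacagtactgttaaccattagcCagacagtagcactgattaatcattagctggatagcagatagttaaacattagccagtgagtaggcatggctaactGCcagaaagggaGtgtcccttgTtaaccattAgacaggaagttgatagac
Akr1c12: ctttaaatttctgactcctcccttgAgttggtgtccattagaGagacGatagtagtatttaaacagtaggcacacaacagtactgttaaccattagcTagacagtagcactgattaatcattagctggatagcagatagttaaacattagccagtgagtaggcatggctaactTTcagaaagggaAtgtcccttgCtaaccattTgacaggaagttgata
The aligned promoters were 95.8% identical, against 63.3% for *Akr1c13* and *Akr1c19*. The promoter table holds 7 of the 8 genes. The hexamer AGAACA, which is the core of steroid hormone response elements, was searched on both strands and occurs in 14.5% of 27025 promoters of this length. Among the 7 genes it was found in *Akr1b7* alone, 100 bases before the start. The full palindromic steroid hormone response element, which joins this hexamer to its reverse complement, was found in none of the 7 and in 1 of all promoters. TGACNNNGC, the core of antioxidant response elements (8.7% of promoters), and TGANTCA, an AP-1 site (6.2%), were found in none of the 7. The hexamer TATAAA (10.3%) was found in *Akr1b8* alone, 159 bases before the start. Bases nearer to the start than 31 were not searched, so that a TATA box there would be missed in any of the 7. The 2 matches are in different promoters, so that no match overlapped another.

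IS libraries held 5829074 to 9770625 counts, caput libraries 4125768 to 11913469 and testis libraries 14077013 to 21376604. Levels are given as CPM, the count of a gene relative to the size of its library after edgeR's TMM scaling, which was done once over the 20 epididymal samples and once over the 6 testis samples. The floor used here was 3 counts, for counting error only. It equals 0.313 to 0.512 CPM for IS libraries, 0.247 to 0.691 CPM for caput libraries and 0.141 to 0.215 CPM for testis libraries. The segment labels were checked against *Lcn8*, a lipocalin of the IS, which had 9212 to 14250 CPM in IS and 28.3 to 1148 CPM in caput samples, and *Lcn5*, a lipocalin of the caput, which had 40.0 to 113 CPM in IS and 10120 to 17410 CPM in caput samples. Caput WT samples 3 and 4 stood apart with *Lcn8* at 1078 and 1148 CPM, where the other 8 caput samples had at most 376 CPM, and results on the caput were also computed without them.

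*Akr1c13* and *Akr1c12* were lower in ArKI caput than in WT caput, and *Akr1c13* was also lower in ArKI IS. *Akr1c14* was lower and *Akr1c18* higher in ArKI IS at low counts. *Akr1c19*, which with *Akr1c13* was the most abundant of the 8 genes in the epididymis, and *Akr1b8*, the most abundant in the testis, did not pass the test of genotype in any tissue. *Akr1b7* was nearly restricted to the caput and varied widely between mice of the same genotype, and *Akr1b3* was listed at 0 in all 26 samples.

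*Akr1c13* encodes a hydroxysteroid and alcohol dehydrogenase. In the IS it had 20.5, 21.1, 18.6, 23.7 and 20.1 CPM in WT samples 1 to 5 and 12.0, 16.6, 13.1, 16.2 and 13.0 CPM in ArKI samples 1 to 5. Every ArKI sample was below every WT sample. The mean fell from 20.8 ± 1.88 to 14.2 ± 2.07 CPM (SD, n = 5), and the log2 fold change was -0.56 (SE 0.10, adjusted p = 0.000408 by the quasi-likelihood test of edgeR, adjusted after Benjamini and Hochberg over 13434 genes). In the caput *Akr1c13* had 14.5, 16.1, 14.8, 15.4 and 15.0 CPM in WT and 6.87, 9.44, 7.17, 8.45 and 5.44 CPM in ArKI samples. Here too the groups were separate, and the highest ArKI sample, the shallowest library of the series, stayed well below the lowest WT sample. The mean fell from 15.2 ± 0.637 to 7.47 ± 1.54 CPM (SD, n = 5), a 2.07-fold decrease (log2 fold change -1.05, SE 0.12, adjusted p = 6.9e-06 over 13726 genes).

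*Akr1c12*, the near copy of *Akr1c13*, was measured at lower counts. In the caput it had 3.49, 5.56, 3.27, 4.63 and 3.74 CPM in WT and 1.45, 1.84, 2.48, 1.88 and 2.06 CPM in ArKI samples, from 28 to 51 and from 8 to 28 counts. The groups were again separate. The mean fell from 4.14 ± 0.949 to 1.94 ± 0.375 CPM (SD, n = 5), a 2.09-fold decrease (log2 fold change -1.06, SE 0.21, adjusted p = 0.00106). In the IS it had 2.89, 2.63, 1.86, 2.40 and 3.34 CPM in WT and 2.64, 2.67, 2.14, 0.853 and 1.77 CPM in ArKI samples. The IS groups overlapped, and the log2 fold change of -0.37 (SE 0.26) did not pass the test (adjusted p = 0.321). Without ArKI sample 4, the lowest, it was -0.20.

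Because reads from the windows that these genes share could not be assigned to either of them, their separate values are uncertain. With the counts of both genes summed, an alternative chosen after seeing the data, the log2 fold change was -0.54 in the IS (SE 0.10, adjusted p = 0.000255) and -1.05 in the caput (SE 0.11, adjusted p = 1.6e-06). The sum fell in both segments, but such a sum is mostly *Akr1c13* and does not recover the unassigned reads. It is therefore no separate check on *Akr1c12*, which by itself did not pass in the IS.

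Against the background of the whole table, 1 of 4 members tested passed in the IS, where 29.6% of all genes tested passed, and 2 of 5 passed in the caput, where 27.7% did. ArKI samples lay wholly below WT samples for 1 of 4 members in the IS and 2 of 5 in the caput, against 10.4% and 10.5% of all genes tested. By the limits that the study's methods set for these segments, an adjusted p below 0.01 and more than 2-fold, *Akr1c12* and *Akr1c13* passed in the caput, where 4.98% of genes did, and none passed in the IS, where 4.04% did. The calls of *Akr1c12* and *Akr1c13* in the caput held without caput WT samples 3 and 4 (adjusted p = 0.00474 and 0.000183).

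**Figure D2:**
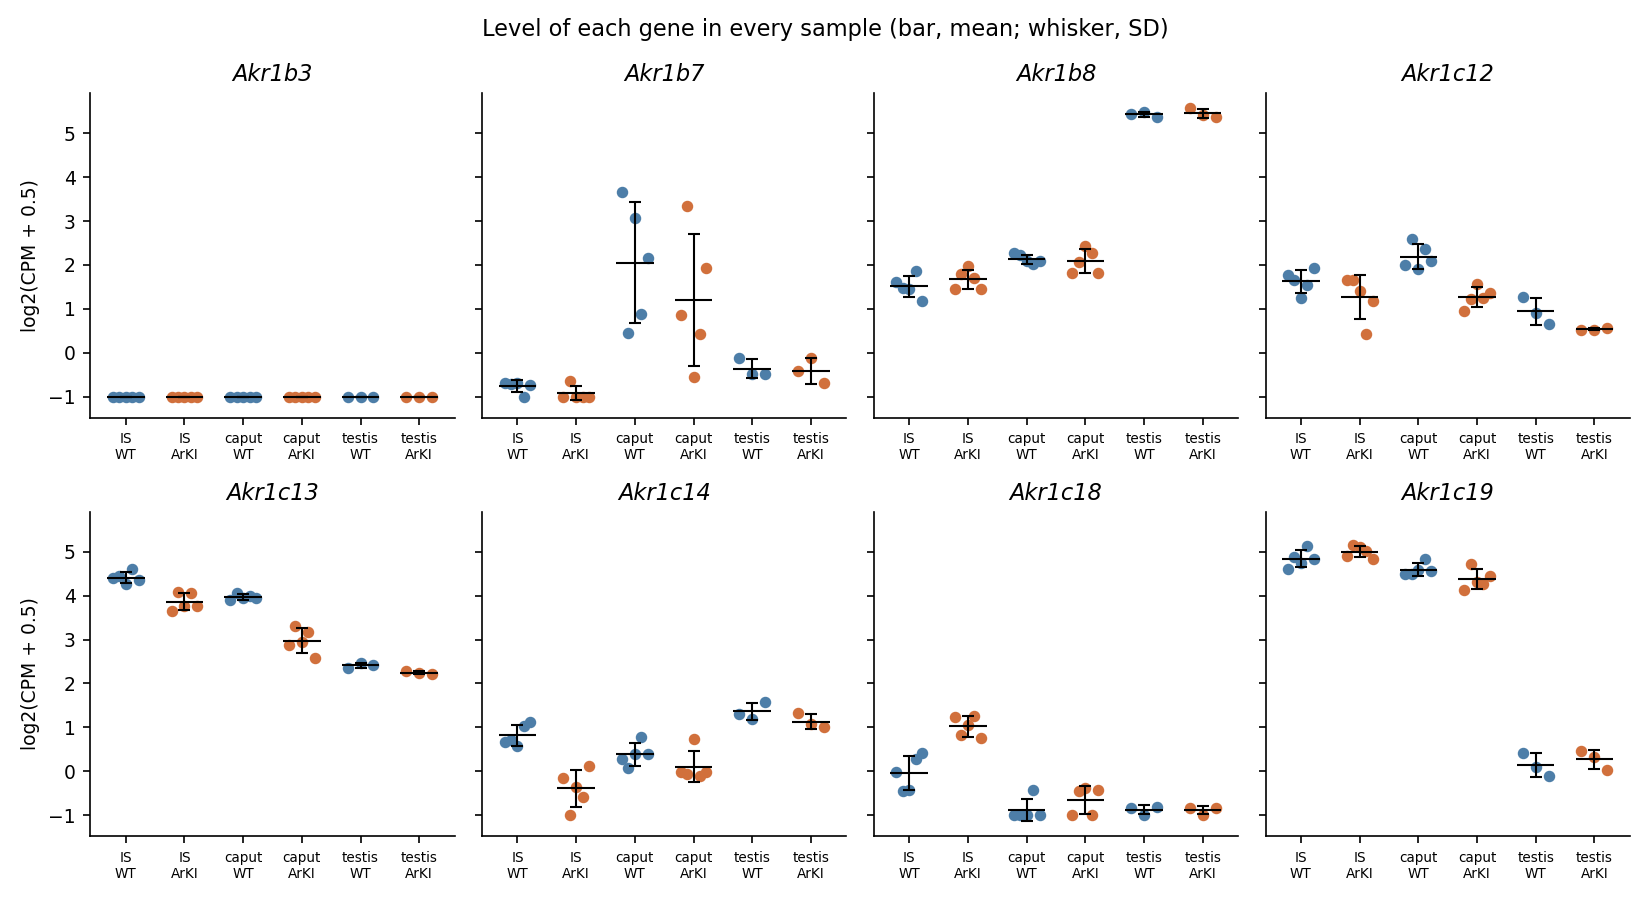
Level of each of the 8 genes in every sample, as log2(CPM + 0.5) on the y axis, with WT in blue and ArKI in orange for IS, caput and testis; bars give the mean and whiskers the SD of these log2 values (n = 5 in IS and caput, n = 3 in testis). *Akr1c13* is separated by genotype in both epididymal segments, *Akr1c12* in the caput, and *Akr1c14* and *Akr1c18* in the IS, where *Akr1c14* is lower and *Akr1c18* higher in ArKI mice.

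*Akr1c14* and *Akr1c18* had too few counts for the filter in the IS and were examined by exact tests. *Akr1c14*, the dehydrogenase that acts at carbon 3, had 9, 10, 8, 11 and 16 counts in WT IS samples and 3, 0, 2, 1 and 5 counts in ArKI IS samples. The levels were 0.992 to 1.67 CPM and 0 to 0.590 CPM, without overlap, and 4 of 5 ArKI samples were at or below the floor of 3 counts. The mean of log2(CPM + 0.5) was 1.22 lower in ArKI (exact two-sided permutation test, p = 0.00794, the smallest p that 252 assignments can give). *Akr1c18*, which inactivates progesterone, moved the other way, with 4, 2, 2, 5 and 8 counts in WT and 14, 9, 11, 11 and 10 counts in ArKI IS samples. Its levels of 0.229 to 0.834 CPM and 1.18 to 1.88 CPM did not overlap either, and the mean of log2(CPM + 0.5) was 1.06 higher in ArKI (exact two-sided permutation test, p = 0.00794). Of the members left out by the filter, 4 comparisons with samples above the floor were tested this way.

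In edgeR without the filter, over 18681 genes, the log2 fold change in the IS was -2.04 for *Akr1c14* (SE 0.47, adjusted p = 0.00159) and 1.58 for *Akr1c18* (SE 0.39, adjusted p = 0.00325). Both calls held in 10 of 10 fits that left out 1 IS sample each, with adjusted p up to 0.00606 and 0.0137. Without the filter 23.0% of all genes passed and 15.6% had separate groups in the IS. The study had listed *Akr1c18* from these same samples, so that its direction is not independent evidence. In the caput *Akr1c14* had 5 to 10 counts in WT and 2 to 13 counts in ArKI samples, and its mean log2 value was 0.28 lower in ArKI (exact two-sided permutation test, p = 0.167). ArKI sample 3, at 1.15 CPM, was above 4 of 5 WT samples, while the other 4 ArKI samples, at 0.427 to 0.494 CPM, were below every WT sample. Without ArKI sample 3 the difference was -0.44 (exact two-sided permutation test of 126 assignments, p = 0.0159), and without WT sample 4 it was -0.18 (exact two-sided permutation test, p = 0.381). *Akr1c18* had at most 3 counts in each of the 10 caput samples and was not tested there.

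*Akr1c19*, a further dehydrogenase of the cluster that lies between *Akr1c13* and *Akr1c12*, did not follow them past the threshold. In the IS it had 23.7, 28.8, 26.3, 34.3 and 28.2 CPM in WT and 29.4, 35.2, 33.8, 31.7 and 28.1 CPM in ArKI samples. The groups overlapped, with a log2 fold change of 0.16 (SE 0.09, adjusted p = 0.193). In the caput it had 21.8, 21.9, 23.4, 28.0 and 23.2 CPM in WT and 17.0, 25.8, 19.4, 18.8 and 21.2 CPM in ArKI samples, with a log2 fold change of -0.23 (SE 0.10, adjusted p = 0.102). Sample 2 of the ArKI caput, at 25.8 CPM, was the only ArKI sample above the WT median. Without it the log2 fold change was -0.29 and passed the test (adjusted p = 0.0209).

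*Akr1b8*, a reductase of aldehydes, had 1.77 to 3.11 CPM in WT and 2.24 to 3.42 CPM in ArKI IS samples, and 3.53 to 4.31 CPM in WT and 3.01 to 4.87 CPM in ArKI caput samples. Groups overlapped in both segments, with log2 fold changes of 0.19 (SE 0.22, adjusted p = 0.562) and -0.03 (SE 0.18, adjusted p = 0.945). The sign of the latter turned with scaling by library size only.

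**Figure D3:**
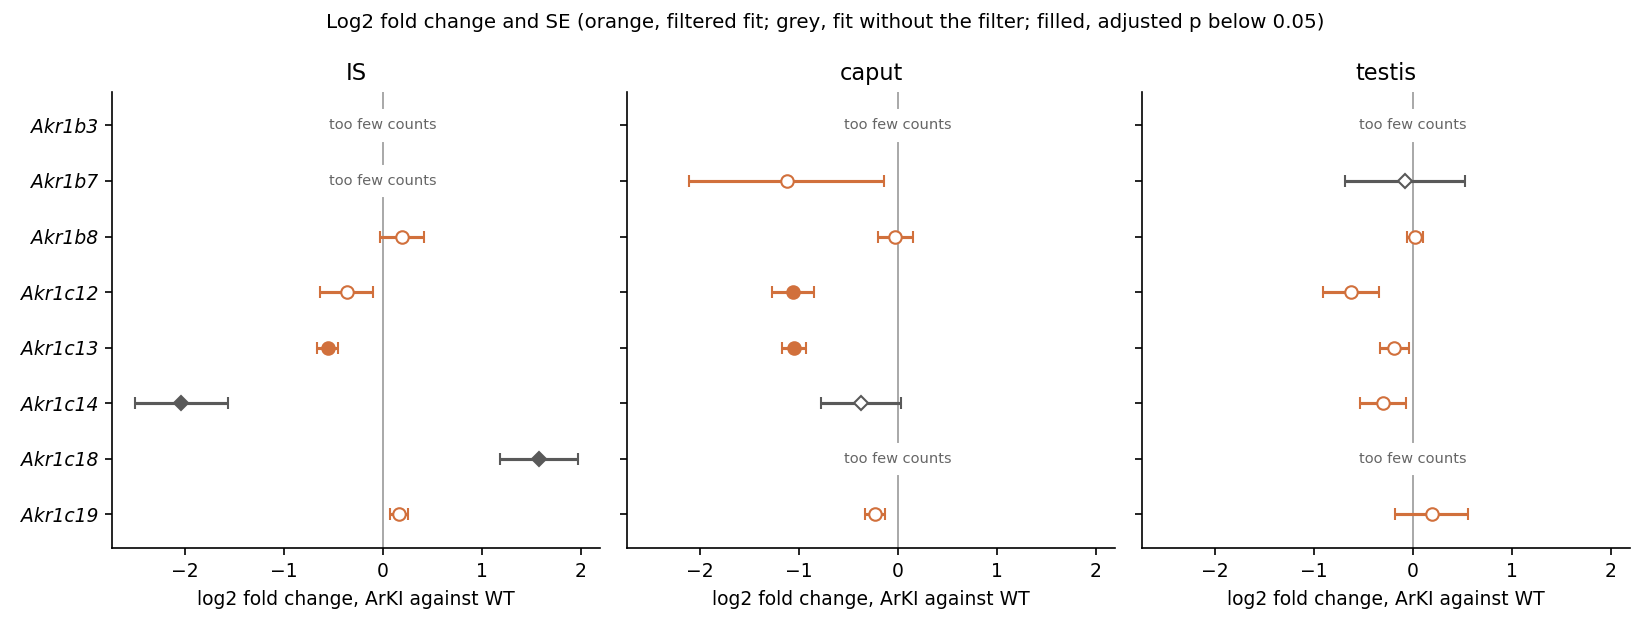
Log2 fold change of ArKI against WT on the x axis, with its SE as the whisker, for each gene in IS, caput and testis. Orange circles come from the filtered fit and grey diamonds from the fit without the filter, filled symbols passed an adjusted p of 0.05, and genes with 3 counts or fewer in every sample have no symbol; *Akr1c12* and *Akr1c13* lie near -1.06 and -1.05 in the caput, while *Akr1c14* at -2.04 and *Akr1c18* at 1.58 point in opposite directions in the IS.

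*Akr1b7* was a gene of the caput. It had at most 1 count in each of the 10 IS samples, and 12.2, 0.872, 7.94, 1.34 and 3.98 CPM in WT and 1.32, 9.67, 0.177, 0.853 and 3.30 CPM in ArKI caput samples. WT samples 1 and 3 and ArKI sample 2 were high, and the genotypes overlapped over nearly the whole range. The log2 fold change in the caput was -1.12, but its SE was 0.99 and it did not pass the test (adjusted p = 0.462). With 1 caput sample left out it ran from -1.87 (without ArKI sample 2) to -0.51 (without WT sample 1).

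The spread of *Akr1b7* was set beside segment markers, chosen for this after its values were seen. *Crisp1*, a secreted protein that sperm take up along the duct, had 916, 18.0, 411, 135 and 430 CPM in WT caput samples 1 to 5 and 534, 2944, 107, 311 and 906 CPM in ArKI caput samples. It is also a gene of the IS, at 1369 to 2346 CPM in WT and 238 to 470 CPM in ArKI samples. The lowest *Crisp1* in each genotype was in a sample with *Akr1b7* below 1 CPM, and the highest *Crisp1* in each genotype was in the sample with the highest *Akr1b7*. *Lcn8* did not follow that order, since WT samples 3 and 4, high in *Lcn8* alike, had 7.94 and 1.34 CPM of *Akr1b7*. Nor did *Lcn5*, which was highest in WT sample 1 (17410 CPM) but lowest in ArKI sample 2 (10120 CPM), the samples with the most *Akr1b7*. Which stretch of the caput each sample held was not tested.

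**Figure D4:**
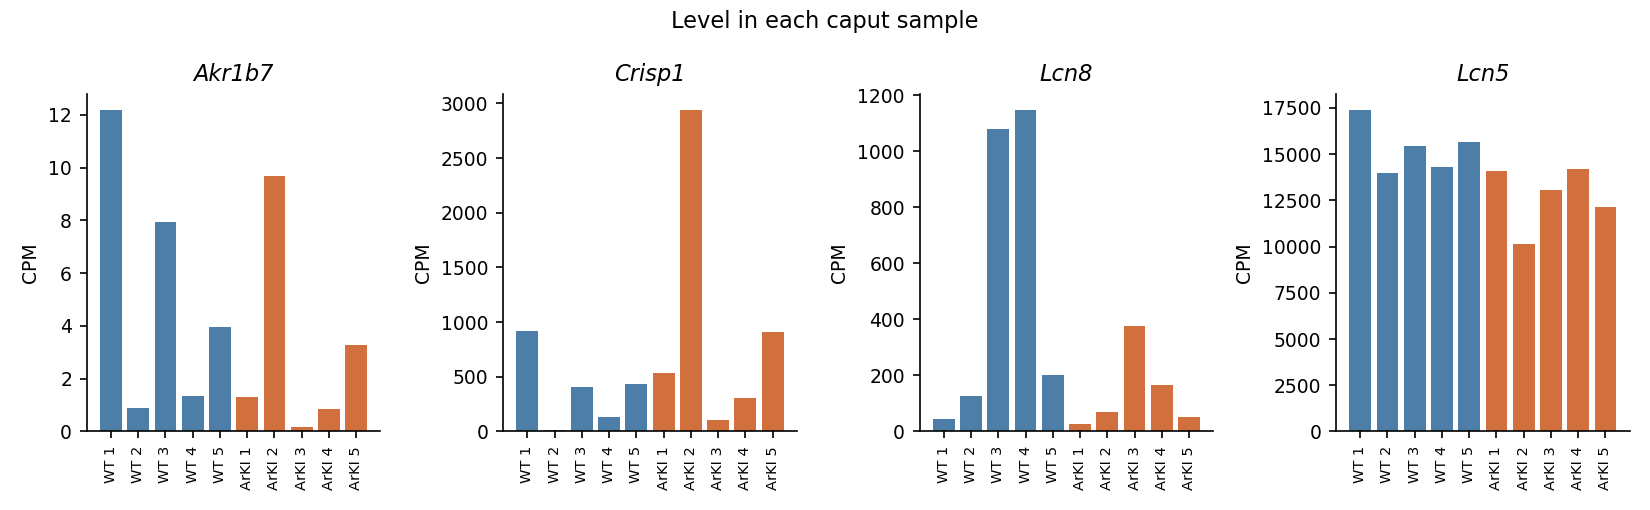
Levels of *Akr1b7*, *Crisp1*, *Lcn8* and *Lcn5* in CPM (y axes from 0, a different scale for each gene) in the 5 WT (blue) and 5 ArKI (orange) caput samples, 1 bar per sample. *Akr1b7* runs from 0.177 to 12.2 CPM, with its highest values in WT sample 1 and ArKI sample 2, which also have the highest *Crisp1* of their genotypes.

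*Akr1b3* had 0 counts in each of the 26 samples. Another gene in its list of shared windows, *Gm6644*, is in the count table and also had 0 counts in every sample. Its 185 windows (13.8%) found in no other gene gave no count either, while reads from its shared windows could not be assigned. Whether the transcript is absent was not tested, and no value of *Akr1b3* was used further.

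Between the segments, members differed in WT mice in both directions. The caput was lower in *Akr1c13* (log2 difference of caput against IS -0.46, SE 0.10, adjusted p = 0.00042) and *Akr1c19* (-0.26, SE 0.10, adjusted p = 0.025), and higher in *Akr1b8* (0.72, SE 0.19, adjusted p = 0.00164) and *Akr1c12* (0.64, SE 0.22, adjusted p = 0.0127). *Akr1b7* was at least 14.5-fold higher and *Akr1c18* at least 1.47-fold lower in WT caput, taking 3 counts per library as the level of the group at or under the floor. Leaving aside *Akr1b7* and *Akr1c18*, which met the filter through one segment, 4 of 4 members passed, where 69.4% of all genes did. The call of *Akr1c12* was lost without caput WT sample 2 (adjusted p = 0.0504), and that of *Akr1c19* without IS WT sample 4 or caput WT sample 1 or 2.

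In ArKI mice 3 of the same 4 members passed this contrast, where 66.2% of all genes did. *Akr1c13* was 1.94-fold lower (log2 difference -0.95, SE 0.12, adjusted p = 1.3e-07) and *Akr1c19* 1.57-fold lower (-0.66, SE 0.10, adjusted p = 2.8e-06) in ArKI caput than in ArKI IS. *Akr1c12* had a log2 difference of -0.05 (SE 0.26, adjusted p = 0.875). With the counts of *Akr1c12* and *Akr1c13* summed, the caput was lower by a log2 difference of -0.28 in WT (SE 0.09, adjusted p = 0.0107) and of -0.80 in ArKI mice (SE 0.11, adjusted p = 3.7e-07). *Akr1b7* was at least 7.26-fold higher, or at least 3.35-fold higher without caput ArKI sample 2, and *Akr1c18* was at least 4.25-fold lower. Further, *Akr1b8* was higher by 0.50 on the log2 scale (SE 0.19, adjusted p = 0.0246). The call of *Akr1b8* was lost without IS ArKI sample 1 or 5 or caput ArKI sample 3 or 4.

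The test of the difference itself, an interaction term fitted over the 20 samples of IS and caput, asked whether the effect of ArKI was unequal in caput and IS. *Akr1c13* passed, with a log2 fold change 0.50 lower in the caput than in the IS (interaction -0.50, SE 0.16, adjusted p = 0.0356), and was 1 of 4 members where 15.1% of all genes passed, leaving aside *Akr1b7* and *Akr1c18*, which met the filter through one segment. The call was lost in 8 of 28 alternatives, among them the fits without caput WT samples 3 and 4 together (adjusted p = 0.0677), and held with *Akr1c12* and *Akr1c13* summed (-0.52, SE 0.14, adjusted p = 0.0137). The interaction of *Akr1c19* was -0.40 (SE 0.14, adjusted p = 0.0577), which passed in 8 of 27 alternatives (adjusted p from 0.0176 to 0.18), and that of *Akr1c12* was -0.69 (SE 0.34, adjusted p = 0.188).

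In the testis no member passed the test, where 1.96% of all genes did. *Akr1b8* had 42.8, 44.0 and 41.0 CPM in WT and 47.0, 42.2 and 40.7 CPM in ArKI samples, with a log2 fold change of 0.02 (SE 0.08, adjusted p = 0.939). *Akr1c13* had 4.62, 5.03 and 4.84 CPM in WT and 4.38, 4.18 and 4.16 CPM in ArKI samples, a separation without overlap and a log2 fold change of -0.19 (SE 0.15, adjusted p = 0.649). *Akr1c12* was separate as well, at 1.92, 1.36 and 1.07 CPM in WT against 0.939, 0.940 and 0.981 CPM in ArKI samples (log2 fold change -0.62, SE 0.29, adjusted p = 0.352, and -0.35 without WT sample 1). Thus ArKI samples lay wholly below WT samples for 2 of 5 members tested, against 8.49% of all genes tested. *Akr1c14* (log2 fold change -0.30, SE 0.23, adjusted p = 0.624) and *Akr1c19* (0.19, SE 0.37, adjusted p = 0.88) overlapped. *Akr1b7* had 2 to 9 counts per testis sample and a mean log2(CPM + 0.5) 0.05 lower in ArKI (exact two-sided permutation test of 20 assignments, p = 1), and *Akr1c18* had at most 1.

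At an unadjusted p below 0.05 in edgeR the testis had 1 member, *Akr1c12*. The share of all genes at that unadjusted limit is not given here, so that this count has no background and nothing is read from it. Neither limma-voom nor DESeq2 called a member in the testis. With the study's limits for this tissue, an adjusted p below 0.2 and more than 2-fold, none passed either, where 0.833% of genes did.

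To compare members with each other, CPM was divided by the length of the reference transcript in kilobases. On that scale *Akr1c19* had 22.8 ± 3.16 CPM per kilobase (SD, n = 5) and *Akr1c13* 16.5 ± 1.49 in WT IS. *Akr1c12* (2.08 ± 0.437) and *Akr1b8* (1.76 ± 0.359) came next and overlapped, as did *Akr1c14* (0.529 ± 0.124) and *Akr1c18* (0.417 ± 0.225). In WT caput the order was *Akr1c19* (19.1 ± 2.04), *Akr1c13* (12.0 ± 0.505), *Akr1b7* (4.11 ± 3.74), *Akr1c12* (3.28 ± 0.752) and *Akr1b8* (2.87 ± 0.235), and the last 3 overlapped. In the testis *Akr1b8* led with 31.4 ± 1.13 CPM per kilobase in WT (SD, n = 3), and *Akr1c13* followed at 3.83 ± 0.162. The full length understates *Akr1c13* and *Akr1c12*, of which 28.6% of the windows are shared, against *Akr1c19*, which shares none. Per 1000 windows that no other gene shares, a scale chosen after seeing the data, *Akr1c13* had 24.0 ± 2.17 and *Akr1c19* 23.7 ± 3.29 CPM in WT IS (SD, n = 5), and 17.5 ± 0.736 and 19.8 ± 2.13 in WT caput. Their samples overlapped in both segments, so their order is not settled. On the same scale *Akr1c12* (4.78 ± 1.10) lay above *Akr1b8* (3.07 ± 0.252) in WT caput without overlap.

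Summed over the members per kilobase of full length, with the same limit for *Akr1c13* and *Akr1c12*, the level was 44.1 ± 4.82 CPM per kilobase in WT IS and 41.8 ± 3.90 in ArKI IS (SD, n = 5). In the caput the sum was 41.7 ± 2.44 in WT and 29.5 ± 6.34 in ArKI mice, with ranges of 38.8 to 44.8 and 23.7 to 40.4 that overlapped through the ArKI sample with the most *Akr1b7*. *Akr1c13* made up 37.5% ± 1.61 of the sum in WT and 26.9% ± 2.51 in ArKI IS, and *Akr1c19* made up 51.5% ± 2.49 and 61.1% ± 1.17. The testis sums were 38.0 ± 1.31 and 37.5 ± 2.77 (SD, n = 3), with 82.7% and 85.0% from *Akr1b8*.

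**Figure D5:**
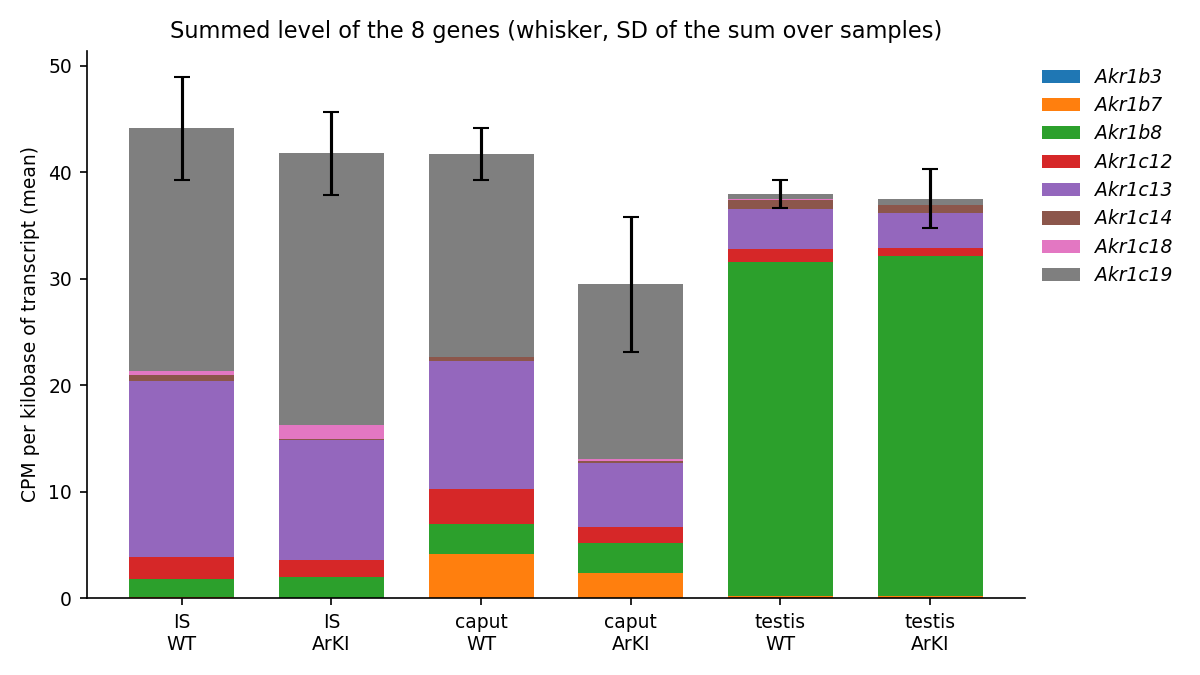
Mean CPM per kilobase of transcript of the 8 genes, stacked, for WT and ArKI IS, caput (n = 5 each) and testis (n = 3 each), with the SD of the sum as whisker. *Akr1c19* and *Akr1c13* fill most of the epididymal bars, *Akr1b8* fills the testis bars, and the ArKI caput bar is the shortest at 29.5 against 41.7 in WT caput.

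Other cell types moved with genotype in these whole-tissue samples, in which fewer cells of a type and less RNA per cell cannot be told apart. Counts of markers are to be read against the 29.6% of all genes that passed in the IS and the 27.7% in the caput. Of 8 sperm markers 2 met the filter in the IS, and did so through the WT samples, so that no count of falls is read. *Prm2* averaged 13.6 CPM in WT and 0.796 CPM in ArKI IS, and *Odf1* 5.21 and 0.978 CPM. The list summed to 10.6 to 70.9 CPM in WT and 2.00 to 6.14 CPM in ArKI IS. In the caput all 8 of 8 sperm markers fell, from a summed 230.9 to 362.9 CPM in WT to 35.9 to 96.8 CPM in ArKI, while 0 of 4 basal cell and 0 of 5 smooth muscle markers passed the test. In WT testis, scaled apart from the epididymis, the same sperm markers summed to 17040 to 20820 CPM, beside 4.83 CPM of *Akr1c13* and 1.45 CPM of *Akr1c12*. In the IS all 5 of 5 smooth muscle markers fell (545.5 to 628.7 CPM against 236.4 to 420.8 CPM), as did 3 of 4 basal cell markers and 3 of the 6 immune markers tested of 10. Of 4 clear cell markers in the IS, *Atp6v0d2* fell by 0.33 on the log2 scale (adjusted p = 0.000109). *Slc4a9* averaged 1.97 CPM in ArKI and 0.396 CPM in WT IS, near the floor. It met the filter through the ArKI samples, so that its fold change is not read. Of 3 tested in the caput *Atp6v1b1* rose by 0.61 (adjusted p = 0.00036) and *Atp6v0d2* fell by 0.25 (adjusted p = 0.00775). The list summed to 204 to 223 CPM in WT and 164 to 208 CPM in ArKI IS. Of the 6 markers of epididymal epithelium, 3 fell in the IS (*Crisp1* by 2.58, *Cst8* by 0.57 and *Lcn8* by 0.47 on the log2 scale) and 1 rose (*Adam7*, 0.48), and 1 fell in the caput (*Lcn5*, by 0.27). They summed to 75000 to 83290 CPM in WT and 68770 to 95460 CPM in ArKI IS, and to 74810 to 92960 and 58740 to 92410 CPM in the caput, and no marker of these 6 lists was at 0 in any group. The part of these cell types in the results on *Akr1c12*, *Akr1c13*, *Akr1c14* and *Akr1c18* was not tested.

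Of 12 other genes of the aldo-keto reductase superfamily, 7 were tested in each epididymal segment. In the IS 1 rose and 1 fell, near the 29.6% of all genes that passed, and the median log2 fold change was 0.09, against 0.00 for all genes. *Kcnab1*, a beta subunit of potassium channels, rose by 1.03 on the log2 scale (SE 0.26, adjusted p = 0.00476), and *Akr7a5*, an aldehyde reductase related to aflatoxin detoxification, fell by 0.28 (SE 0.06, adjusted p = 0.00154). In the caput 0 rose and 2 fell, near the 27.7% of all genes that passed, with a median of -0.07 against 0.00. *Kcnab2*, another channel subunit, fell by 0.97 (SE 0.23, adjusted p = 0.00401), and *Akr1b10*, the neighbour of *Akr1b8* and *Akr1b7* with a coding sequence 89.3% identical to the latter, fell by 0.25 (SE 0.07, adjusted p = 0.0164). The call of *Akr1b10* was lost in 3 of 18 alternatives, among them that without caput WT samples 3 and 4 together, which gave the highest adjusted p (0.0616).

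The remaining relatives did not pass the test or had too few counts for it. *Akr1a1*, the general aldehyde reductase, was far more abundant than any member, at 851 CPM per kilobase in WT IS and 437 in WT caput, and its log2 fold changes were 0.09 (adjusted p = 0.17) and 0.10 (adjusted p = 0.343). *Akr1e1*, at the end of the chromosome 13 cluster, had log2 fold changes of 0.06 (adjusted p = 0.62) and -0.07 (adjusted p = 0.413). *Kcnab3*, a channel subunit, was higher in every ArKI than in every WT sample of the IS (log2 fold change 0.55, SE 0.21, adjusted p = 0.0502). *Akr1c6*, between the members and *Akr1e1*, was listed at 0 in every sample, and *Akr1c20*, *Akr1c21* and *Akr1d1* did not meet the filter on low counts in any tissue. *Akr1cl*, a gene on chromosome 1 that shares 7 windows with *Akr1c18*, was a testis gene at 122 CPM in WT and 141 CPM in ArKI samples (log2 fold change 0.21, SE 0.10, adjusted p = 0.422). None of the 8 relatives tested in the testis passed.

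The wider group of steroid reductases and dehydrogenases, of which 20 genes outside the aldo-keto reductases are in the tables, had 10 tested members in the IS, of which 4 rose and 1 fell, where 29.6% of all genes passed in either direction, with a median log2 fold change of 0.10. *Hsd11b1*, which regenerates active glucocorticoid, rose by 1.69 (SE 0.17, adjusted p = 5.0e-07), while *Srd5a1*, which makes dihydrotestosterone, fell by 0.73 (SE 0.07, adjusted p = 1.0e-07). In the caput 3 of 12 rose and 1 fell, where 27.7% of all genes passed, with a median of 0.09. *Hsd11b1* rose there too, by 1.23 (SE 0.15, adjusted p = 1.4e-05), and *Hsd17b11* by 0.24 (SE 0.07, adjusted p = 0.0179). In the testis, where 1.96% of all genes passed, 1 of 13 rose, *Hsd17b3* of Leydig cells (0.51, SE 0.09, adjusted p = 0.00165), beside 3 of 6 Leydig cell markers, a list that also holds *Hsd17b3*.

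For each member the genes with the most similar pattern over the 20 epididymal samples were sought by Pearson's r of log2(CPM + 0.5). These samples form 4 groups, so that r mostly follows the group means, and it is given as a description. *Akr1c13* was nearest to *Fbxo32* (r = 0.943), *Apod* (0.933) and *Mical2* (0.927). *Apod*, which encodes a lipid carrier, averaged 453.5 CPM in WT and 144.6 CPM in ArKI IS, and 252.6 and 35.8 CPM in the caput. *Akr1c12* was less close to its nearest genes, *Wdsub1* (0.852), *Pm20d2* (0.836) and *Os9* (0.828). Members were left out of this search. Over the same samples *Akr1c13* had r = 0.640 with *Akr1c19*, 0.338 with *Akr1c14*, 0.323 with *Akr1c12* and 0.252 with *Akr1c18*.

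*Akr1b7* was nearest to *Aqp6* (r = 0.962), *Sat1* (0.956) and *Aspg* (0.950). *Aqp6*, a water and ion channel, averaged 10.4 CPM in WT and 3.77 CPM in ArKI caput and 0.0941 and 0.0967 CPM in WT and ArKI IS. *Akr1c18* was nearest to *Gpr126* (0.946), *Cnih4* and *Unc79* (0.941 each), and *Akr1c14* to *Ccni* (0.830), *Neu3* (0.826) and *Baz1a* (0.823). *Akr1c19* was nearest to *Idh3a* (0.880), *Snx6* (0.876) and *Uros* (0.870), and *Akr1b8* to *Tomm22* (0.874), *Atp5k* (0.872) and *Ugdh* (0.870).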

How the data were processed

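RNA-seq data of 26 samples were used. The authors aligned single-end reads of 50 bases to mm10 with STAR, counted uniquely mapped reads per RefSeq gene with Subread (version 1.5.1 in the submitters' processing notes, which also name bcl2fastq 1.8.4), and deposited raw counts without filtering or normalization. The labels name the Illumina TruSeq RNA v2 guide and the methods a stranded kit, and whether strand was used in counting is not given in the sources used here. The level of the gene changed in ArKI mice is not reported here, and ChIP-seq data were not used.

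Each tissue was fitted by itself, ArKI against WT, with edgeR 4.0.16 in R 4.3.3: filterByExpr (minimum count 10, minimum total count 15), TMM scaling and the robust quasi-likelihood test, with Benjamini-Hochberg adjustment over all genes tested and a threshold of 0.05. Segments and the interaction were fitted in the 20 epididymal samples, taken as independent. The study's own test (ROTS) was not run, and limma 3.58.1 (voom) and DESeq2 1.42.0 were alternatives, beside RLE factors, library size only, no filter, the replicate number as a block, one joint fit, the study's limits and each sample left out. The fits were tried on counts simulated from edgeR's own model of genes past the filter, which does not test low counts or shared mice. Members left out by the filter were compared by exact two-sided permutation tests of log2(CPM + 0.5). By the methods the samples of a group came from separate mice, and p-values measure the spread between these samples.

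Members and gene lists were chosen with earlier results of these data known. Named were all 8 members, the other aldo-keto reductases, from each further list up to 4 genes past the threshold with the largest log2 fold changes, and the 3 genes nearest to each member. Sequences and promoters are from RefSeq tables and the GRCm38 reference transcripts, and identities were computed with Biopython 1.88. Figures were drawn with matplotlib 3.10.9. Sequences of the encoded proteins were not used here.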

Additional observations from a re-analysis of the deposited data

Results flagged for a closer look

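Among 24 groups of 5 samples in which a member was above the floor, 2 had a sample far from the others by Dixon's criterion, where chance gives about 1.2. *Akr1c14* had 1.15 CPM (13 counts) in ArKI caput sample 3, where the next sample had 0.494 CPM. *Akr1c19* had 28.0 CPM (230 counts) in WT caput sample 4, where the next sample had 23.4 CPM, and this is one of the caput samples with high *Lcn8*.

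The effect of ArKI differed between caput and IS by a test of the interaction for 1 of 4 members and 3 of 7 relatives, where 15.1% of all genes passed, leaving aside *Akr1b7* and *Akr1c18*, which met the filter through one segment. The log2 fold change in the caput minus that in the IS was -0.50 for *Akr1c13* (adjusted p = 0.0356), -0.39 for *Akr1b10* (adjusted p = 0.012), 0.26 for *Akr7a5* (adjusted p = 0.0324) and -1.16 for *Kcnab1* (adjusted p = 0.00998). The call of *Akr1c13* was lost in 8 of 28 alternatives (adjusted p up to 0.081) and that of *Akr7a5* in 10 of 27 (adjusted p up to 0.0914), while those of *Akr1b10* and *Kcnab1* held in all 27.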

How the results depend on the processing

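The calls of *Akr1c12* and *Akr1c13* in the caput and of *Akr1c13* in the IS held in every alternative at the threshold of 0.05, with log2 fold changes from -1.17 to -0.93, from -1.12 to -0.94 and from -0.62 to -0.50. The number of members past the threshold in the IS was 1, and 3 without the filter (*Akr1c13*, *Akr1c14* and *Akr1c18*), 2 in a joint fit of all 20 epididymal samples (*Akr1c13* and *Akr1c18*), 0 under the study's limits, and 1 to 3 with 1 sample left out, the 3 being *Akr1c13*, *Akr1c18* and *Akr1c19* without IS WT sample 4. Members with an interaction numbered 1, and 2 without the filter, by limma-voom and with the replicate block, where *Akr1c19* was added, 0 at an adjusted p below 0.01 and over 2-fold, 0 without caput WT samples 3 and 4, and 0 to 2 with 1 sample left out (*Akr1c13* was lost without IS ArKI sample 2 or 4, IS WT sample 3 or 5, caput WT sample 2, or caput ArKI sample 1 or 5). Segment differences numbered 6 in WT and 5 in ArKI, and 2 each over 2-fold, counting *Akr1b7* and *Akr1c18*, which met the filter through one segment. The cause of these changes was not tested, except that fewer samples or genes enter some fits. Signs turned only in differences that did not pass the test. These were *Akr1b8* in the caput (0.006 by library size only, and -0.141 to 0.058 with 1 sample left out) and testis (-0.038 to 0.063), *Akr1c19* in the testis (-0.005 to 0.505), the interactions of *Akr1b7* (-0.779 by limma-voom, -0.495 to 1.807 with 1 sample left out) and *Akr1c18* (0.034 by DESeq2, 1.870 without caput WT samples 3 and 4, -0.543 to 1.867 with 1 sample left out), and the segment difference of *Akr1c12* in ArKI mice (0.011 by limma-voom, -0.220 to 0.062 with 1 sample left out). Of 710 log2 fold changes of members under alternatives, 664 kept direction and side of the threshold, 16 no longer passed, 10 newly passed and 20 turned sign. Of 1067 for called genes of the other lists, 109 no longer passed and 0 turned sign. Equal replicate numbers were not taken to pair the samples, since no source says that they mark one mouse and the correlations of same-numbered samples were not all over 0.1. They ran from -0.09 to 0.20 in the IS, -0.19 to 0.20 in the caput and -0.01 to 0.06 in the testis, and from -0.10 to 0.20 between segments, where 3 of 5 WT and 1 of 5 ArKI pairs were over 0.1 and 3 and 2 samples matched best with their own number. With the replicate block the IS, caput and testis had 1, 2 and 0 members past the threshold, as without it. Depth limits *Akr1b7* outside the caput and *Akr1c14* and *Akr1c18* in every epididymal sample.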

Other observations

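Of all genes tested, 29.6% passed in the IS, 27.7% in the caput and 1.96% in the testis, and the lists below are read against these shares. Of 15 genes of aldehyde and carbonyl detoxification tested in the IS, 6 rose and 5 fell (median log2 fold change 0.00), and of 16 in the caput 4 rose and 6 fell (median -0.14). *Adh1*, an alcohol and retinol dehydrogenase, rose by 1.56 on the log2 scale in both segments (SE 0.09, adjusted p = 5.8e-08 in the IS and SE 0.06, adjusted p = 3.0e-11 in the caput). *Aldh1a7*, an aldehyde dehydrogenase, rose by 0.50 in the IS (adjusted p = 0.0231), a call lost in 5 of 10 fits that left out 1 IS sample, fell by 0.83 in the caput (adjusted p = 4.5e-05), and rose by 1.88 in the testis (SE 0.09, adjusted p = 1.7e-11).

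Of 7 genes of the polyol pathway, in which aldose reductase takes the first step, 1 rose and 4 fell in the caput (median log2 fold change -0.19). *Khk*, ketohexokinase, fell by 1.23 (SE 0.10, adjusted p = 1.8e-07) and *Sord*, sorbitol dehydrogenase, fell by 0.87 (SE 0.12, adjusted p = 0.000118), while *Slc5a3*, a transporter of inositol, rose by 0.76 (SE 0.07, adjusted p = 3.7e-07). In the IS 1 rose, *Slc5a3* again (0.62, SE 0.06, adjusted p = 8.0e-08), and 1 fell, *Hk1* (-0.49, SE 0.07, adjusted p = 2.0e-05), and in the testis 0 of 7 passed.

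Of 14 targets of NRF2, the regulator of antioxidant genes, 3 rose and 5 fell in the IS (median -0.15), 1 rose and 3 fell in the caput (median -0.05), and 1 rose in the testis, with the caput count near the share of all genes. *Ephx1*, an epoxide hydrolase, was the gene that rose in the testis (0.88, SE 0.06, adjusted p = 5.5e-09), and *Osgin1* fell by 0.65 in the IS (SE 0.13, adjusted p = 0.000965).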
